A study of Sus scrofa with 6 samples.

Results

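The known lncRNAs were long non-coding RNAs that already had an entry in the reference annotation of the pig genome. They were the rows marked known in the annotation column of the deposited lncRNA expression table, 64 of 7566 rows in all. The other 7502 rows were transcripts that the study assembled from its own reads and are called assembled lncRNAs here. Every known row carried an Ensembl gene identifier, and every assembled row carried the identifier of a single transcript. None of the 64 known rows had a gene symbol in the name table used, so they are given by identifier.

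Long non-coding RNAs are transcripts that are long enough to resemble mRNAs but are not thought to encode a protein. Many are spliced and polyadenylated, are present at low levels and are restricted to certain tissues or cell types. Some act on neighbouring genes in the nucleus, others bind proteins or serve as the primary transcript of microRNAs, and for most no role has been established. In skin, lncRNAs are known for parts in the differentiation of keratinocytes, the cells that form the epidermis.

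The animals were 3 female adult Bama pigs, a Chinese breed with white and black areas of coat, aged 2 years and sampled 8 mm deep. Each pig gave a piece of white skin cut from its back and a piece of black skin cut from its buttock, so there were 3 samples of each skin. Poly(A) RNA was sequenced from whole skin, and the values are FPKM, fragments scaled to the length of the transcript and to the mapped fragments of the sample. The comparison asks which lncRNAs differ between skin with and without pigment cells, but skin colour and body site cannot be told apart in this design. In whole skin, fewer cells of a type and less RNA per cell cannot be told apart either.

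Of the known lncRNAs, 55 lay on 19 chromosomes and 9 lay on 8 unplaced scaffolds of the Sscrofa11.1 build. Chromosome 3 held 9 of them, chromosome 10 held 6 and chromosome 9 held 5. The plus strand carried 29 and the minus strand 35.

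The RefSeq gene table of the same build gave these loci other classes. Of the 55 on chromosomes, 26 overlapped a RefSeq lncRNA and 27 overlapped a RefSeq protein-coding gene, 9 of which were in both counts, and 11 overlapped no RefSeq gene. Of the 27, 11 lay fully inside the protein-coding gene, and for 17 the only protein-coding genes overlapped had provisional LOC names. The RefSeq table gave no strand, so a gene on the same strand and one on the opposite strand were not separated. The median of the mean FPKM was 0.439 for the 18 known rows that overlapped a protein-coding gene only, 0.267 for the 17 that overlapped a lncRNA only, 0.209 for the 9 with both and 0.169 for the 11 with neither.

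By their listed positions, the known lncRNAs covered much longer stretches of the genome than the assembled ones. Span was taken as the distance from the first to the last listed position of a row. The median was 32263 bp (quartiles 14581 and 73113 bp) for the known rows, against 488 bp (quartiles 178 and 2926 bp) for the assembled rows. No known row spanned less than 200 bp, the length from which a transcript is usually called long, while 2148 assembled rows (28.6%) did. Spans of 5 kb or more were held by 59 known rows (92.2%) and by 1496 assembled rows (19.9%). The spans of a gene and of a single transcript are different quantities, so this difference includes the kind of row. Assembled spans went down to 10 bp, too short for a long non-coding transcript. The listed positions of some assembled rows therefore cannot cover the whole transcript, and these spans are not transcript lengths.

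**Figure D1:**
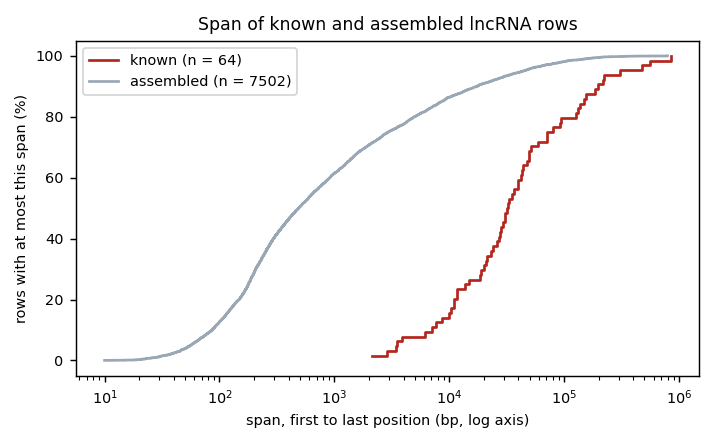
Cumulative share of lncRNA rows (y axis, percent) with at most a given span (x axis, bp, log scale) for the 64 known and the 7502 assembled rows. The known curve lies to the right throughout, with a median of 32263 bp against 488 bp.

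The shortest known lncRNA was ENSSSCG00000036096, with 2117 bp on chromosome 3 from 39261903 to 39264019, and it had 0.425, 0.315 and 0.820 FPKM in the white skin of pigs 1, 2 and 3 and 0.357, 0.605 and 0.239 FPKM in their black skin. The longest was ENSSSCG00000040839, with 852275 bp on chromosome 17 from 53705212 to 54557486. Its span overlapped TSHZ2, a gene for a zinc-finger homeobox protein. Among the 10 known lncRNAs under 10 kb the median of the mean FPKM was 0.410, among the 41 from 10 kb to under 100 kb it was 0.330, and among the 13 of 100 kb or more it was 0.135. Only 2 of these 13 were above 0.1 FPKM in all 6 samples. Across the 64 known rows, span and mean FPKM had a Spearman correlation of -0.30, and across the assembled rows of 0.23. These are descriptions across genes, which are not independent replicates.

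Known lncRNAs were expressed at low levels. The mean FPKM over the 6 samples had a median of 0.248 (quartiles 0.0793 and 0.550) for the known rows and 0.254 (quartiles 0.137 and 0.544) for the assembled rows. The highest known row reached 11.8 FPKM and the highest assembled row 2752 FPKM. Only 9 known rows had a mean above 1 FPKM and 3 had a mean above 5 FPKM. The 10 highest rows together held 75.2% of the summed mean FPKM of all 64, and the 2 highest held 40.0%. In each sample the known rows made up between 0.223% and 0.798% of the summed lncRNA FPKM. The lowest share was in the white skin of pig 3, where a single assembled row held 58.4% of that sum.

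**Figure D2:**
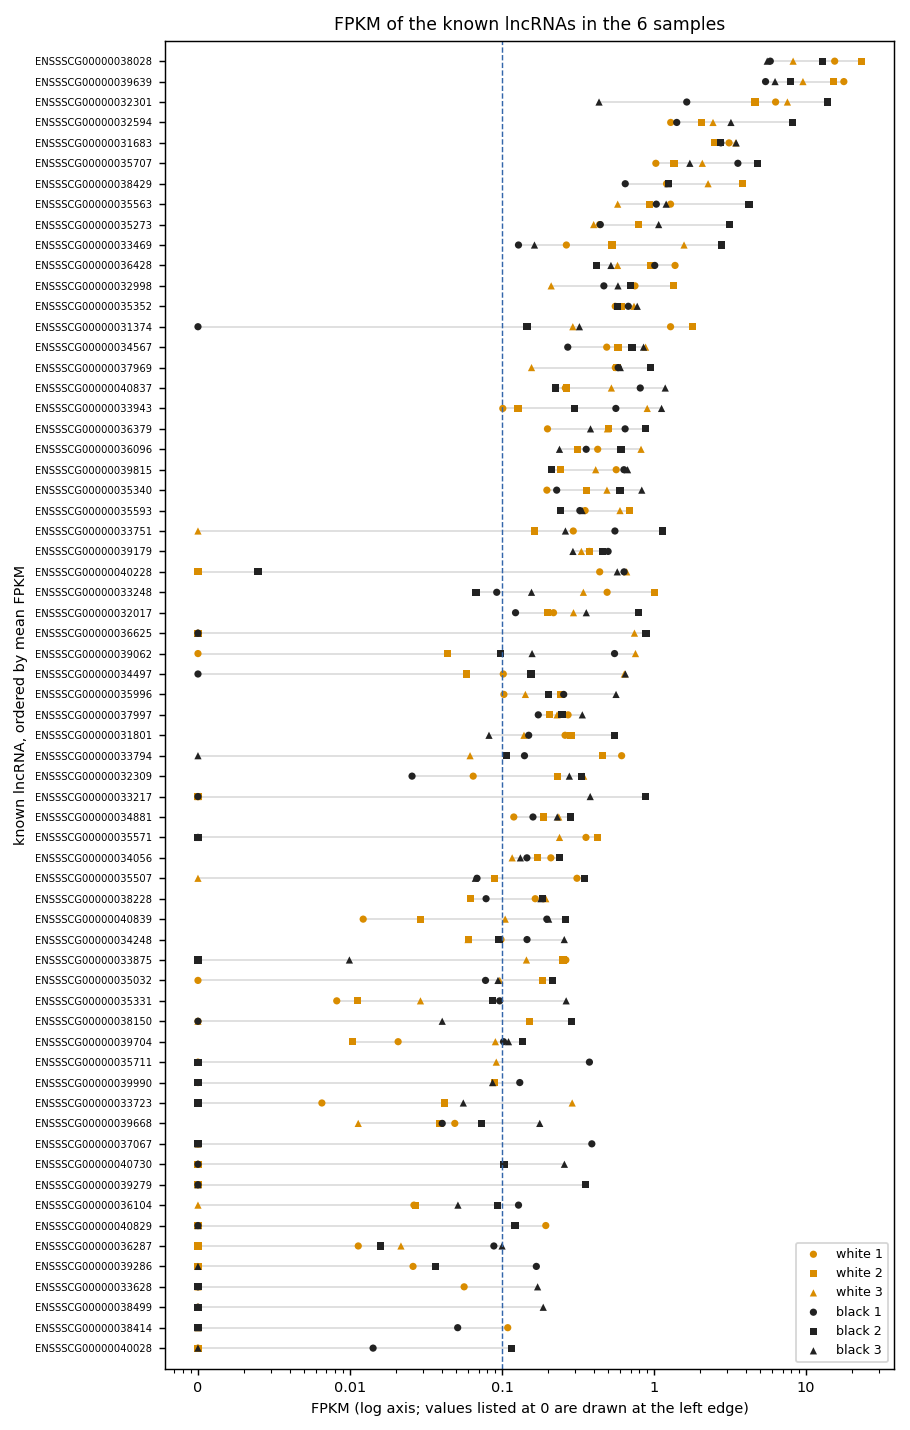
FPKM of each of the 64 known lncRNAs (y axis, ordered by mean FPKM) in the 6 samples (x axis, log scale, values listed at 0 drawn at the left edge). Colour gives the skin, the marker shape gives the pig, and the dashed line is 0.1 FPKM. The means run from 0.0215 to 11.8 FPKM, and 27 rows have at least 1 sample at 0.

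The 2 highest known lncRNAs were both near or within a protein-coding locus, and both had higher means in white skin. ENSSSCG00000038028 (chromosome 16, 78301444 to 78305338, minus strand) lay 531 bp from IRX2, which encodes an Iroquois homeobox transcription factor. It overlapped the RefSeq protein-coding gene C16H5orf38 over 94.3% of its span. It had 15.4, 23.0 and 8.21 FPKM in the white skin of pigs 1, 2 and 3 and 5.81, 12.7 and 5.55 FPKM in their black skin. White skin was higher than black in each pig, with 15.5 ± 7.41 against 8.03 ± 4.08 FPKM (SD, n = 3 each), but the groups overlapped. The log2 fold change was 0.93 (SE 0.57, adjusted p = 0.691 by limma with Benjamini-Hochberg adjustment). IRX2 itself had a log2 fold change of 0.42 (SE 0.25, limma adjusted p = 0.286).

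ENSSSCG00000039639 (chromosome 4, 67844438 to 67847924, plus strand) overlapped no RefSeq gene and lay 101 bp from CSPP1, which encodes a protein of centrosomes and spindle poles. It had 17.7, 15.2 and 9.53 FPKM in the white skin of pigs 1, 2 and 3 and 5.41, 7.89 and 6.24 FPKM in their black skin. All white values were above all black values, with means of 14.1 ± 4.19 and 6.51 ± 1.26 FPKM (SD, n = 3 each), a 2.17-fold difference. The log2 fold change of 1.08 (SE 0.55) did not pass the test across all lncRNA rows (limma adjusted p = 0.664). CSPP1 had a fold change of the opposite sign, -0.74 on the log2 scale (SE 0.29, limma adjusted p = 0.141).

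ENSSSCG00000032301 (chromosome 10, 24956426 to 24976482, minus strand) came next by level and was the most uneven of the 3 in black skin. It had 6.29, 4.60 and 7.53 FPKM in white skin and 1.64, 13.8 and 0.434 FPKM in black skin of pigs 1, 2 and 3. The black value of pig 2 was above and the other black values were below all white values, so the means of 6.14 ± 1.47 and 5.28 ± 7.37 FPKM (SD, n = 3 each) differed by less than the spread. Its nearest named mRNA was CYB5R1, a cytochrome b5 reductase gene 24654 bp away. RefSeq lists this locus as LOC102162336, a protein-coding gene.

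The black skin of pig 2 also gave the highest value of several other abundant known lncRNAs. ENSSSCG00000032594 (chromosome 6) lay 19731 bp from the retinol dehydrogenase gene RDH13 and fully inside LOC110261048, a RefSeq protein-coding gene. It had 1.29, 2.05 and 2.44 FPKM in white skin and 1.41, 8.09 and 3.20 FPKM in black skin. ENSSSCG00000035563, on an unplaced scaffold, had 1.28, 0.932 and 0.576 FPKM in white skin and 1.03, 4.21 and 1.20 FPKM in black skin. ENSSSCG00000035273, inside the RefSeq lncRNA LOC106509733 on chromosome 3, had 0.438, 0.793 and 0.400 FPKM in white skin and 0.443, 3.14 and 1.07 FPKM in black skin. In each of these 3, 1 black sample set most of the difference between the skins, and the groups overlapped. ENSSSCG00000033469, on another scaffold, had 0.265, 0.528 and 1.57 FPKM in white skin and 0.128, 2.78 and 0.163 FPKM in black skin, again with the peak in that sample. ENSSSCG00000035707, on yet another scaffold, had 1.03, 1.35 and 2.08 FPKM in white skin and 3.56, 4.76 and 1.72 FPKM in black skin. Over all 64 known rows, 22 (34.4%) had their highest value in the black skin of pig 2 and 16 (25%) in that of pig 3, against 22.2% and 12.7% of the assembled rows. Of the 10 most abundant known rows, 6 were highest in the black skin of pig 2.

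Not all abundant known lncRNAs varied. ENSSSCG00000031683 (chromosome 10) lay 2612 bp from the DNA repair exonuclease gene EXO1. It overlapped the RefSeq protein-coding gene LOC102166270 over 97.6% of its span. It had 3.11, 2.51 and 3.44 FPKM in white skin and 2.75, 2.75 and 3.47 FPKM in black skin of pigs 1, 2 and 3. Its coefficient of variation over the 6 samples, 13.3%, was the lowest of the 64. The log2 difference was 0.012 with an SE of 0.60, and it turned negative with quantile normalization. The coefficient of variation had a median of 82.2% over the known rows and 137% over the assembled rows.

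Known lncRNAs were detected in more samples than assembled ones. A row was counted as detected above 0.1 FPKM, the level that each of the 7566 rows reached in at least 1 sample. In the white skin of pigs 1, 2 and 3, 41, 38 and 41 of the 64 known rows were detected, and in their black skin 41, 46 and 46. The share of known rows detected exceeded that of assembled rows in 6 of 6 samples, by 6.90 to 22.4 percentage points (mean 12.1 ± 5.94, SD, n = 6). An exact sign-flip permutation test over the 6 samples gave p = 0.031, two-sided, the smallest p that 6 samples allow, and over the 3 pig means p = 0.25, the smallest that 3 allow. The direction depended on the level: above 0.5 FPKM the known share was 1.74 points lower on average, with a difference of -1.74 (exact p = 0.25, n = 6). Against the 616 assembled rows with spans between the quartiles of the known rows, the difference at 0.1 FPKM was 11.4 points (exact p = 0.031, n = 6). All 64 known rows were kept there, also those with spans outside the quartiles, so the 2 sides were not fully matched. The 6 samples were both skins of 3 pigs, so they were not independent animals.

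**Figure D3:**
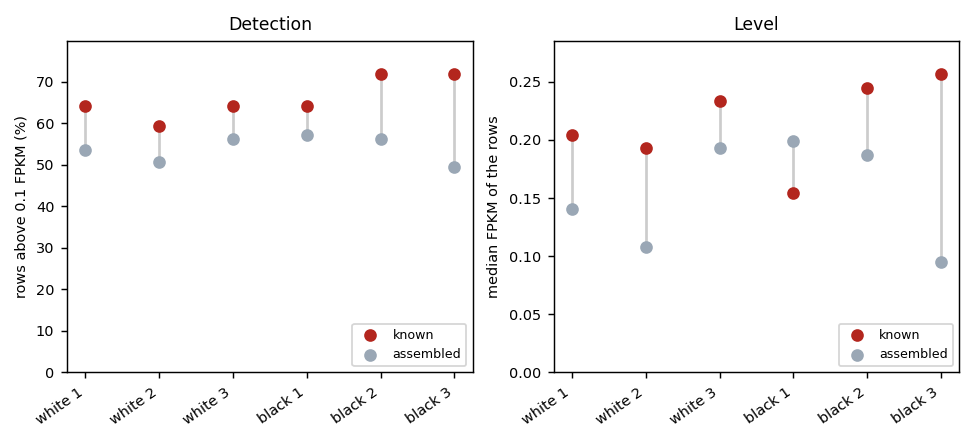
Left, share of rows above 0.1 FPKM (percent) in each sample for known and assembled lncRNAs. Right, median FPKM of the same rows. Each vertical line joins the 2 values of 1 sample. The known share is higher in all 6 samples, and the known median is higher in 5, the black skin of pig 1 being the exception.

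The median level gave a less uniform picture. The median FPKM of the known rows was 0.204, 0.193 and 0.233 in the white skin of pigs 1, 2 and 3 and 0.155, 0.245 and 0.257 in their black skin. On the log2(FPKM + 0.1) scale the known median was above the assembled median by 0.32 ± 0.36 (SD, n = 6), ranging from -0.23 in the black skin of pig 1 to 0.87 in that of pig 3. This did not pass an exact sign-flip permutation test (p = 0.09375, two-sided, n = 6).

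The number of samples in which a known lncRNA was detected fell mostly at the extremes. All 6 samples were above 0.1 FPKM for 28 known rows (43.8%), against 1454 assembled rows (19.4%). Exactly 1 sample was above 0.1 FPKM for 14 known rows (21.9%), against 1993 assembled rows (26.6%). The remaining 22 were above it in 2 (8 rows), 3 (4 rows), 4 (7 rows) or 5 samples (3 rows). The 28 rows detected throughout had a median of the mean FPKM of 0.599. Of the 14 detected once, 12 were detected in a black sample and 2 in a white one, none of them above 0.389 FPKM. Among the assembled rows detected once, 60.2% were detected in a black sample. At least 1 sample was listed at 0 for 27 known rows (42.2%) and for 73.1% of the assembled rows. An FPKM of 0 in a table without counts can also be a failed estimate, and the depth behind it is unknown.

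More known lncRNAs were detected in black skin only than in white skin only. Black samples alone were above 0.1 FPKM for 16 known rows (25%, against 21.2% of assembled rows), and white samples alone for 4 (6.25%, against 16.2%). All rows passed 0.1 FPKM in at least 1 sample, so a row detected in one skin only passed through that skin alone. These counts are therefore only a description. The number detected per sample was 40 ± 1.73 in white and 44.3 ± 2.89 in black skin (SD, n = 3 each). An exact permutation test of that difference gave p = 0.3, two-sided, where 3 samples against 3 cannot go below 0.1. The median log2 level of the known rows was -1.69 ± 0.0945 in white and -1.67 ± 0.268 in black skin (exact permutation p = 0.9, two-sided, n = 3 each), and its sign changed with the scaling of the samples.

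Several known lncRNAs were listed at 0 in all 3 samples of one skin. ENSSSCG00000035571 (chromosome 2, 96297437 to 96434978, plus strand) lay inside the RefSeq lncRNA LOC102159394 and began 510 bp from MEF2C, which encodes a transcription factor of muscle, vascular and neural cells. It had 0.356, 0.424 and 0.239 FPKM in the white skin of pigs 1, 2 and 3 and was listed at 0 in all 3 black samples. It was the only known row at 0 throughout black skin and above 0 in white skin. Same-strand assembled rows in its span were present in both skins. Summed with them, the locus had 1.85, 1.97 and 1.81 FPKM in white and 0.434, 2.06 and 1.03 FPKM in black skin. MEF2C was present in both skins, with 6.37, 13.1 and 9.19 FPKM in white and 7.65, 4.84 and 9.71 FPKM in black skin.

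Another 6 known rows were listed at 0 in all white samples. Every row passed 0.1 FPKM in at least 1 sample, so a row at 0 throughout one skin passed only through the other. The share of all rows listed at 0 throughout one skin was not computed, so these counts are no result about known rows. ENSSSCG00000033217 (chromosome 3, 3996877 to 4010579), 679 bp from TNRC18, had 0, 0.873 and 0.380 FPKM in the black skin of pigs 1, 2 and 3. ENSSSCG00000040730 (chromosome 14, 118157260 to 118629484) had 0, 0.103 and 0.257 FPKM there. Neither was detected in the black skin of pig 1, so the groups overlapped at 0. Each of the other 4 was above 0.1 FPKM in 1 black sample. At the ENSSSCG00000033217 locus, same-strand assembled rows were present in both skins. Summed with them, that locus had 0.481, 0.516 and 0.799 FPKM in white and 0.809, 0.950 and 0.468 FPKM in black skin.

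White and black skin were compared for every lncRNA row with limma on log2(FPKM + 0.1), and a row was called where the fold change exceeded 1 on the log2 scale in either direction and the adjusted p was below 0.05. None of the 64 known lncRNAs was called, where 101 of all 7566 rows (1.33%) were, 82 higher (1.08%) and 19 lower (0.251%) in white skin. The lowest adjusted p among the known rows was 0.439 (limma, Benjamini-Hochberg). At an unadjusted p below 0.05, 1 known row passed (1.56%), against 7.88% of all rows. With each pig treated as a block, 0 known rows were called against 3.21% of all rows, and 3 passed at an unadjusted p below 0.05 against 11.2%. The SE of the log2 fold change ranged from 0.55 to 1.17 over the known rows (median 0.96), so a fold change of 1 on the log2 scale was within about 2 SE of 0 even for the most precise row.

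The size of the fold changes at these low levels depended on the pseudocount, the 0.1 FPKM added before taking logs. With it, the fold changes of the known lncRNAs ranged from -1.85 to 2.21 on the log2 scale (the lower end at ENSSSCG00000033217, which white skin lists at 0), with a median of -0.22 against -0.14 over all rows, and 42 of the 64 (65.6%) were below 0 against 53.5% of all rows. Upper-quartile scaling moved the median of all rows to 0.00 and that of the known rows to -0.085. Without the 7 rows that one skin lists at 0 throughout, the known median was -0.14. The median of all rows was not recomputed without such rows, so the 2 cannot be compared. An absolute log2 fold change above 1 was found for 14 known rows (21.9%) and for 40.6% of all rows. With a pseudocount of 0.01 the known range was -3.92 to 5.09 and 30 known rows (46.9%) exceeded 1, against 67.0% of all rows. With a pseudocount of 1 the range was -0.76 to 0.98 and 0 known rows exceeded it, against 3.45% of all rows. The difference between the skins in the gap of known and assembled medians was 0.039 on the log2 scale (exact permutation p = 0.9, two-sided, n = 3 each).

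**Figure D4:**
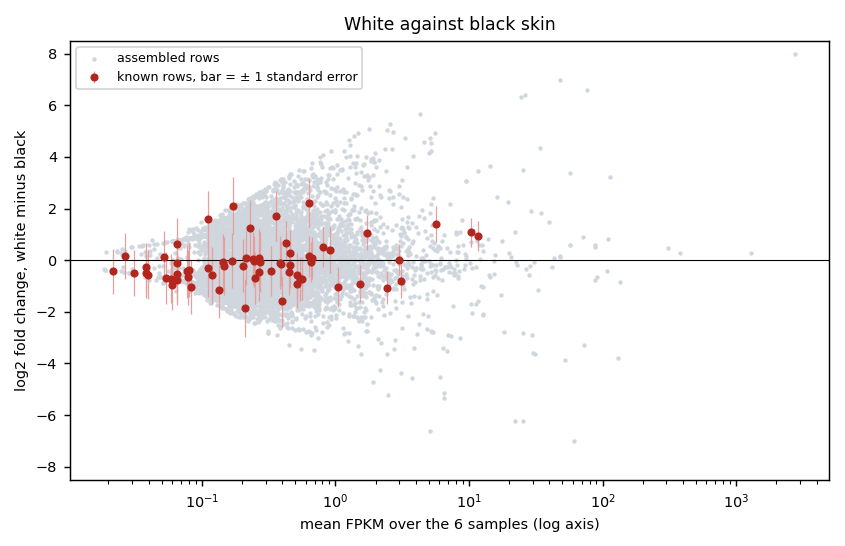
Log2 fold change of white minus black skin (y axis) against the mean FPKM over the 6 samples (x axis, log scale). Known lncRNAs are red with bars of 1 SE from limma, and assembled lncRNAs are grey. Known rows lie between -1.85 and 2.21, inside the range of the assembled rows.

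In 10 known lncRNAs (15.6%) the values of the skins did not overlap, against 12.2% of all rows. White skin was above black in 5 (7.81%, against 6.87% of all rows) and below it in 5 (7.81%, against 5.31%). Leaving out 1 sample gave 12 to 18 such known rows, where 17.9% to 20.5% of all rows did not overlap. Known rows that were higher in white skin in all 3 pigs numbered 10 (15.6%, against 11.2% of all rows), and 12 were lower in all 3 (18.8%, against 10.5%). No single one of these rows passed the test of the fold change. A pig with 0 in both skins counted in neither direction, and skins that shared a 0 counted as overlapping. At least 3 samples were listed at 0 for 21.9% of the known rows and for 48.6% of all rows. The part of these zeros in the shares was not tested.

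The known lncRNAs with the largest fold changes towards white skin that held in all 3 pigs were ENSSSCG00000035571 and ENSSSCG00000039639, described above, and 3 others. ENSSSCG00000033248 (chromosome 3, 111487814 to 111496506, plus strand), 7488 bp from SLC4A1AP, had 0.491, 1.01 and 0.343 FPKM in white skin and 0.0923, 0.0674 and 0.156 FPKM in black skin of pigs 1, 2 and 3. The groups did not overlap, and the means of 0.614 ± 0.349 and 0.105 ± 0.0458 FPKM (SD, n = 3 each) differed 5.83-fold (log2 fold change 1.71, SE 0.97, limma adjusted p = 0.691). ENSSSCG00000033875 (chromosome 1), which lies within DPH6, a gene for a diphthamide synthesis enzyme, had 0.263, 0.252 and 0.145 FPKM in white skin against 0, 0 and 0.00991 FPKM in black skin. ENSSSCG00000033794 (chromosome 13), within the RNA-binding protein gene RBMS3, had 0.611, 0.456 and 0.0616 FPKM in white skin against 0.140, 0.107 and 0 FPKM in black skin. White was higher in each pig for both, but only the first had groups that did not overlap. RBMS3 itself was lower in white skin by its log2 fold change of -0.64 (SE 0.26, limma adjusted p = 0.159), and DPH6 had -0.11 (SE 0.25, limma adjusted p = 0.777).

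The largest fold changes towards black skin that held in all 3 pigs included the longest known lncRNA, ENSSSCG00000040839. It had 0.0122, 0.0292 and 0.105 FPKM in white skin and 0.197, 0.263 and 0.203 FPKM in black skin of pigs 1, 2 and 3. All black values were above all white values, with a log2 fold change of -1.15 (SE 1.10, limma adjusted p = 0.691). ENSSSCG00000035331 (chromosome 7), which overlaps TMEM225B, also had separate groups, with 0.00818, 0.0112 and 0.0291 FPKM in white skin and 0.0964, 0.0869 and 0.264 FPKM in black skin. Its mean level of 0.0826 FPKM was below the detection level of 0.1 FPKM. Its log2 fold change was -1.04 (SE 1.06, limma adjusted p = 0.691). ENSSSCG00000033751 (chromosome 4) had 0.294, 0.164 and 0 FPKM in white skin and 0.552, 1.13 and 0.261 FPKM in black skin, and its log2 fold change was -1.60 (SE 0.97, limma adjusted p = 0.691). ENSSSCG00000033943 (chromosome 18) had 0.101, 0.127 and 0.901 FPKM in white skin and 0.560, 0.299 and 1.12 FPKM in black skin. In these last 2 lncRNAs black skin was higher within each pig while the groups overlapped. ENSSSCG00000035273, described above, was also among these 5, with -1.03 (SE 0.78).

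The 43 known lncRNAs not chosen by these criteria had mean levels of 0.0215 to 0.808 FPKM and fold changes from -0.76 to 2.21 on the log2 scale. The 4 of them whose skins did not overlap were picked out after their values were seen. ENSSSCG00000035593 (chromosome 1, 51369901 to 51429587) had 0.352, 0.689 and 0.596 FPKM in white skin and 0.325, 0.242 and 0.336 FPKM in black skin. The RefSeq microRNA genes MIR30A and MIR30C-2 lie within its span, and 99.1% of that span overlaps the RefSeq protein-coding gene LOC102157778. The others had higher values in black skin: ENSSSCG00000037969, 339 bp from the Hedgehog pathway transcription factor gene GLI3, ENSSSCG00000039704, and ENSSSCG00000036104, 3193 bp from the nuclear receptor gene NR2F1. Their limma adjusted p were 0.691, 0.780 and 0.751 in that order. ENSSSCG00000039704 and ENSSSCG00000036104 had mean levels of only 0.0784 and 0.0544 FPKM, below the detection level of 0.1 FPKM. GLI3 had a log2 fold change of -0.81 (limma adjusted p = 0.133) and NR2F1 one of -0.52 (limma adjusted p = 0.302). A further known lncRNA with a microRNA gene in its span, MIR365-1, was ENSSSCG00000036428, with 1.37, 0.950 and 0.575 FPKM in white skin and 1.01, 0.420 and 0.520 FPKM in black skin.

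The study's own list of differentially expressed lncRNAs was drawn up on these samples and is no independent evidence. It gives annotated lncRNAs as transcripts, so known rows were matched to it by overlapping position, without the strand. In this way 3 known rows were matched. They were ENSSSCG00000038028, ENSSSCG00000033248 and ENSSSCG00000038429. The last (chromosome 10, 66433253 to 66436118, minus strand) overlapped the RefSeq lncRNA LOC100624137. It had 1.21, 3.80 and 2.26 FPKM in white skin and 0.646, 1.24 and 1.23 FPKM in black skin of pigs 1, 2 and 3. White skin was higher in each pig, but the white value of pig 1 was below the highest black value, and the log2 fold change was 1.06 (SE 0.68, limma adjusted p = 0.691).

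A known row was often only part of the signal at its locus. In all, 86 assembled rows overlapped 33 known loci, 82 of them on the same strand, with up to 8 at a locus. The known row held a median of 19.7% of the FPKM summed over itself and the same-strand assembled rows, and under 50% in 27 of the 33 loci. Known rows carry gene identifiers, and whether their FPKM is an estimate for the gene or for 1 transcript is not given in the sources used here. If it is for the gene, the sum counts shared reads more than once, and the share, the sum and the comparison of levels and detection with single-transcript rows set unlike quantities side by side. Of the 86 assembled rows, 3 (3.49%) were called between the skins, against 1.33% of all rows.

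Each of these 3 lay in a locus where the known row was not called. TCONS_00012839, in the locus of ENSSSCG00000038429, had 3.18, 5.78 and 6.20 FPKM in white skin and 0.102, 0 and 0 FPKM in black skin (log2 fold change 5.29, SE 0.78, limma adjusted p = 1.39e-05). TCONS_00104798, in the locus of ENSSSCG00000031374, had 4.11, 6.22 and 5.31 FPKM in white skin and 0.515, 0.956 and 0.955 FPKM in black skin (log2 fold change 2.57, SE 0.63, limma adjusted p = 0.0161). TCONS_00012004, in the locus of ENSSSCG00000032301, was listed at 0 in all white samples and had 13.4, 10.04 and 6.94 FPKM in black skin (limma adjusted p = 8.51e-09). The first and second were higher in white skin and the last was higher in black skin.

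The sum over the locus was therefore added as an alternative after the data were seen. At the ENSSSCG00000038429 locus the sum was 12.6, 16.8 and 22.5 FPKM in white skin and 4.51, 3.32 and 5.03 FPKM in black skin of pigs 1, 2 and 3. The skins no longer overlapped, with a log2 fold change of 1.97 (SE 0.56, limma adjusted p = 0.0569, and 0.00618 when blocked by pig). At the ENSSSCG00000031374 locus the sum was 6.12, 8.86 and 6.41 FPKM in white skin and 0.515, 3.22 and 2.199 FPKM in black skin, and its log2 fold change was 2.09 (SE 0.63, limma adjusted p = 0.0809, and 0.00555 with the block). These were the 2 of 64 locus sums called with the block, where 3.23% of all rows were called in the same fit. None was called without the block, where 1.32% of all rows were, and 1.33% without the sums. At the ENSSSCG00000032301 locus the sum reversed the direction of the known row, with 6.29, 4.60 and 7.53 FPKM in white skin against 15.1, 23.8 and 7.37 FPKM in black skin (log2 fold change -1.19, limma adjusted p = 0.587). Over the 33 loci, 8 changed direction when the assembled rows were added. How the authors' software divided reads between an annotated gene and the transcripts assembled over it was not tested.

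**Figure D5:**
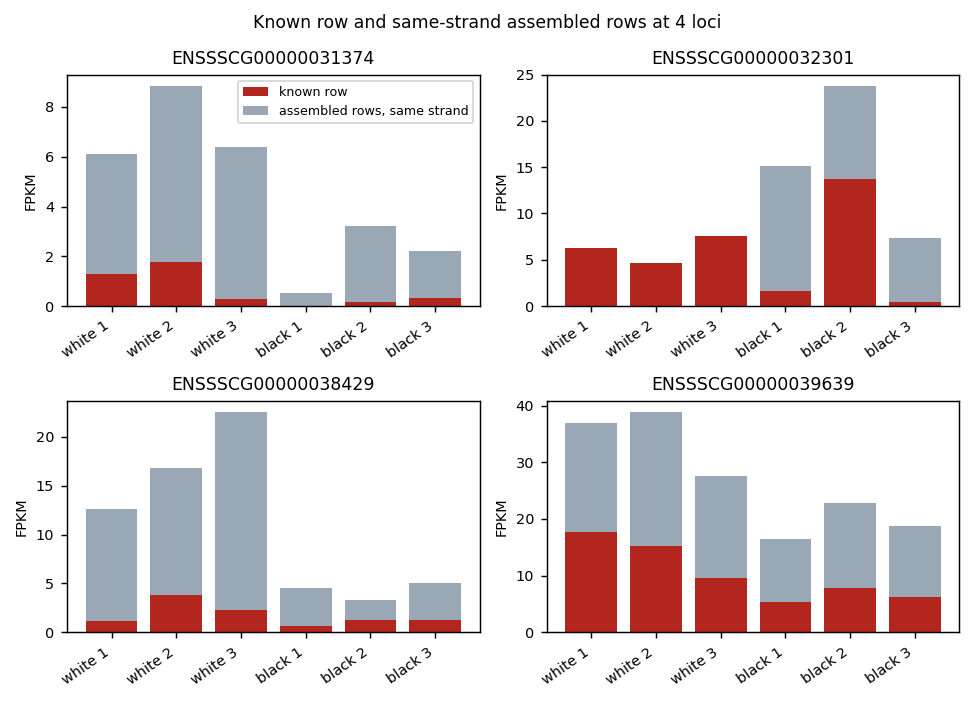
FPKM of the known row (red) and of the same-strand assembled rows (grey) stacked for each sample at the 3 loci with a called assembled row and at ENSSSCG00000039639. The known row is the smaller part in 6 of 6 samples at each locus except ENSSSCG00000032301, where it is the whole bar in the 3 white samples.

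ENSSSCG00000031374 (chromosome 8, 2312523 to 2318635, minus strand) had the largest fold change of all known lncRNAs and is described here because its values were seen. It had 1.28, 1.78 and 0.292 FPKM in white skin and 0, 0.146 and 0.323 FPKM in black skin of pigs 1, 2 and 3. White skin was higher in pigs 1 and 2 and slightly lower in pig 3, and the log2 fold change was 2.21 (SE 0.92, limma adjusted p = 0.439, unadjusted p = 0.0203 in the fit across all rows). RefSeq lists the locus as LOC106504574, a protein-coding gene. ADRA2C, which encodes the alpha-2C adrenergic receptor, lies 1490 bp away and had 30.4, 31.9 and 22.9 FPKM in white skin and 3.22, 4.83 and 11.3 FPKM in black skin. ADRA2C was higher in white skin without overlap (log2 fold change 2.21, SE 0.41, limma adjusted p = 0.0268).

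A named mRNA lay within 100 kb of 44 known lncRNAs, and 5 of these mRNAs overlapped the lncRNA. The nearest mRNA was called between the skins for 3 of the 44 (6.82%), where 6.24% of all 14900 mRNAs were called. The 3, named because they were called, were ADRA2C, PSMD14 and CD34. PSMD14, the deubiquitinase of the proteasome lid, lay 40 bp from ENSSSCG00000034567 and was higher in white skin (log2 fold change 1.59, SE 0.32, limma adjusted p = 0.0328). ENSSSCG00000034567 had similar values in both skins, 0.488, 0.578 and 0.879 FPKM in white and 0.270, 0.715 and 0.852 FPKM in black. CD34, a surface marker of endothelial and progenitor cells, lay 61492 bp from ENSSSCG00000035996 and was lower in white skin (log2 fold change -2.06, SE 0.39, limma adjusted p = 0.0279). In the fit blocked by pig, 5 of the 44 nearest mRNAs were called, where 9.66% of all mRNAs were, among them KLF6, a zinc-finger transcription factor gene 52327 bp from ENSSSCG00000038429 (log2 fold change -1.46, limma adjusted p = 0.0559, and 0.0441 with the block). Of the 44 nearest mRNAs, 33 (75%) had a fold change below 0, against 69.1% of all mRNAs, and 25 had the same sign as their lncRNA. Most known rows were below 0 as well, and the share of same signs among unrelated pairs was not computed. The count of same signs is therefore only a description.

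Cell-type markers among the mRNAs differed between the skins alongside these lncRNA values. The summed FPKM of 10 melanocyte markers was 6.92 to 10.6 in white and 42.1 to 191 in black skin, with 5 of the 10 called lower in white skin. TYRP1 and MLANA were listed at 0 in 2 white samples. TYR was listed at 0 in all white samples but also in the black skin of pig 3, and it was not called (limma adjusted p = 0.248). The 6 adipocyte markers summed to 144 to 514 FPKM in white and 808 to 1890 FPKM in black skin, with 5 called lower in white. The 3 endothelial markers measured of 4 summed to 27.6 to 30.9 and 69.9 to 148 FPKM, with all 3 called lower in white. The 3 skeletal muscle markers measured of 8 summed to 962 to 1081 and 41.7 to 138.6 FPKM, with CKM and DES called higher in white, while the muscle actin ACTA1 was at 0.0298 to 1.77 FPKM in white skin. DES is also expressed in smooth muscle. Keratinocyte markers (5 measured of 8) and hair follicle markers (6 measured of 7) had no call (4 hair follicle markers were called lower in white with the block), with sums of 449.6 to 1454 and 0.149 to 176.9 FPKM in white skin and 1025 to 1569 and 231.7 to 9903 FPKM in black skin. Of the 6 fibroblast and the 5 immune markers, 1 each was called lower in white skin, and 3 fibroblast markers were with the block. The part of these cell types in the lncRNA differences was not tested.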

How the data were processed

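The authors deposited FPKM values for lncRNAs and mRNAs, calculated with StringTie after alignment to Sscrofa11.1. The study's methods name TopHat as the aligner, while the submitters' processing notes list HISAT2 2.0.4, StringTie 1.3.3, Cufflinks 2.2.1 and CASAVA 1.8.2. Without counts the sequencing depth of a value cannot be given, nor an interval for counting error. All 6 columns were used. The rows marked known in the table are not the same in number as the annotated lncRNAs that the study counts, for a reason not worked out, and only the former are described. Fold change columns were not present in the tables analysed.

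The skins were compared in R 4.3.3 by limma 3.58.1, fitting a mean-variance trend, over all 7566 lncRNA rows on log2(FPKM + 0.1) and over all 14900 mRNAs on log2(FPKM + 0.5), so fold changes of low rows are understated. P-values were adjusted by Benjamini-Hochberg over each table. The pig was not a term, as in the study, and a block for the pig was an alternative. Same-numbered samples came from the same pig, and their deviations from the group means correlated across lncRNA rows at 0.10, 0.15 and 0.13. The model was run on simulated data without a pig effect. The planted changes were larger than any that the main fit gave for a known row. That run therefore does not show how often changes of the size seen here would be called. Single values were compared with exact permutation tests, two-sided, in Python 3.11.15 with NumPy 2.4.6 and pandas 2.3.3. Symbols came from a gene name table (12236 of 14900 mRNAs, 82.1%) and overlaps from RefSeq's genes on Sscrofa11.1.

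Known rows were named if they passed both thresholds, were among the 10 highest by mean FPKM, or were the shortest or longest. Also named were the 5 largest fold changes in each direction that held in all 3 pigs. So were rows listed at 0 in one skin and above 0.1 FPKM in at least 2 samples of the other. Rows matched by position to the study's list of differential lncRNAs were named too. A last criterion was overlap with a RefSeq gene on a list of well-known lncRNAs, which no row met. The members and lists were chosen with earlier results of these data known. Alternatives were pseudocounts of 0.01 and 1, upper-quartile scaling, quantile normalization, filters on mean FPKM, other detection levels, no trend, mRNA and lncRNA rows in 1 fit, and leaving out each sample.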

Additional observations from a re-analysis of the deposited data

How the results depend on the processing

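No known lncRNA was called under any of the pseudocounts, scalings, filters on mean FPKM, leave-one-out fits, the block for the pig, limma without the trend or the fit with mRNAs, where the calls over all lncRNA rows ranged from 0 to 243. The exceptions were the locus sum with the block, with 2, and the unadjusted p, with 1. Over all rows the calls numbered 31 and 19 with pseudocounts of 0.01 and 1, 117 with upper-quartile scaling, 90 with quantile normalization, 82 and 18 for mean FPKM of at least 0.1 and 0.5, 12 without the trend, 97 with mRNAs in the fit and 0 to 5 without 1 sample.

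The skins did not overlap in 2 of the 19 known rows with a mean FPKM of at least 0.5 (20.5% of all rows), in 11 of 64 with upper-quartile scaling (12.4%), in 7 with quantile normalization (12.1%) and in 12 to 18 without 1 sample (17.9% to 20.5%). The direction was the same in all 3 pigs for 22 known rows. The difference between the skins in the median level of the known rows, -0.025 on the log2 scale, became 0.14 with upper-quartile scaling, 0.057 with quantile normalization and ranged from -0.18 to 0.064 without 1 sample, with the sign turned without the white sample of pig 2 or the black sample of pig 2 or 3. The difference between the skins in the gap of known and assembled medians became -0.099 at a mean FPKM of at least 0.5 and ranged from -0.23 to 0.32 without 1 sample. The detection difference of 12.1 points had exact p = 0.25 over 3 pig means, was -1.74 above 0.5 FPKM, and was 9.99 to 13.1 with exact p = 0.0625, the smallest that 5 samples allow, without 1 sample. At a mean FPKM of at least 0.5 the median span was 20057 bp for known and 1041 bp for assembled rows. The cause of these changes was not tested.

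Among the named rows, the log2 fold change of ENSSSCG00000031683 became -0.049 with quantile normalization and -0.12 with the locus sum, with or without the block, and ranged from -0.085 to 0.14 without 1 sample. The locus sum turned ENSSSCG00000032301 to -1.19 and ENSSSCG00000033794 to -0.67, each with and without the block. Without 1 sample, ENSSSCG00000033469 ranged from -0.26 to 1.57 and ENSSSCG00000036096 from -0.033 to 0.57. ENSSSCG00000038429 was called with the locus sum and the block (1.97, limma adjusted p = 0.00618). The locus sum of ENSSSCG00000031374 was the other one called with the block (2.09, limma adjusted p = 0.00555). On the known rows themselves the block changed no call. The pseudocounts of 0.01 and 1 gave 5.09 and 0.42 for ENSSSCG00000035571, 4.15 and 0.28 for ENSSSCG00000033875, and -3.92 and -0.46 for ENSSSCG00000033217. Without counts, a row at 0 cannot be separated from one too low to be measured.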

Other observations

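A pair of known lncRNAs lay on opposite strands of one unplaced scaffold with spans that overlapped by 15877 bp. ENSSSCG00000035340, on the plus strand, had 0.197, 0.361 and 0.490 FPKM in the white skin of pigs 1, 2 and 3 and 0.229, 0.596 and 0.830 FPKM in their black skin. ENSSSCG00000036287, on the minus strand, had the lowest maximum of the 64 known rows, just past 0.1 FPKM in the black skin of pig 3. The most even known lncRNAs apart from ENSSSCG00000031683 were picked out after their values were seen. ENSSSCG00000035352 (chromosome 5) lay inside the RefSeq protein-coding gene LOC110260611. It had 0.555, 0.610 and 0.738 FPKM in white skin and 0.676, 0.577 and 0.774 FPKM in black skin, with a coefficient of variation of 13.6%. ENSSSCG00000039179 (chromosome 1), 212 bp from ZCCHC2, had 0.375, 0.377 and 0.332 FPKM in white skin and 0.498, 0.457 and 0.292 FPKM in black skin, with a coefficient of variation of 19.7%.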
